A study of Mus musculus with 18 samples.

Results

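The 8 genes Atoh1, Hes1, Spdef, Gfi1, Dll1, Dll4, Notch1 and Foxa3 regulate whether an intestinal progenitor becomes a secretory or an absorptive cell. They were chosen by name, as the rows of the count tables whose Ensembl gene ID carries one of these symbols in the GENCODE M21 annotation of GRCm38, and they are 8 of 47729 genes in each table. They were read in 18 poly(A) RNA sequencing libraries of epithelial cells sorted by flow cytometry from the ileum, the last stretch of the small intestine, of female mice. The mice were virgin, pregnant or pseudopregnant, with 6 libraries in each group. Pseudopregnancy is the hormonal state that follows a mating without embryos, so it sets hormones of the corpus luteum beside pregnancy itself. All groups were fed RM3 while breeding and RM1 in maintenance and during the experiment. No strain, age, day of pregnancy, means of bringing about pseudopregnancy or sorting marker could be taken from the labels. The labels do not say that the replicates of a group came from separate animals, so the p-values measure only the spread between these libraries, which may be technical.

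In the crypts of the intestine, Notch signalling runs between neighbouring cells. A ligand such as DLL1 or DLL4 on a cell binds the receptor NOTCH1 on its neighbour, the receptor is cleaved, and its inner part enters the nucleus and, with the DNA-binding protein RBPJ, switches on Hes1. HES1 represses Atoh1, the gene for the factor that starts the secretory programme, so cells receiving the signal stay progenitors or become absorptive, while cells that escape it make ATOH1 and themselves display ligands. Downstream of ATOH1, GFI1 steers cells towards goblet and Paneth fates and away from the enteroendocrine one, and SPDEF and FOXA3 act in the maturation of goblet cells, with SPDEF also acting in Paneth cells. Goblet cells secrete mucus, and Paneth cells at the crypt base secrete antimicrobial peptides and are themselves a source of Notch ligand for the stem cells.

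The stretches of genome just before 4 of the genes are shown because Spdef and Foxa3 varied together most closely across the libraries, Atoh1 is the gene that both are placed downstream of, and Dll4 differed most between virgin and pregnant libraries. Each is the 250 bases before the RefSeq transcript start on GRCm38.p6, read 5′ to 3′ on the strand of the gene. The windows are chr17:27728952-27729201 on the minus strand for Spdef, chr7:19023540-19023789 on the minus strand for Foxa3, chr6:64728875-64729124 on the plus strand for Atoh1 and chr2:119325534-119325783 on the plus strand for Dll4. Capitals mark matches to 5 motifs searched on both strands.
Spdef: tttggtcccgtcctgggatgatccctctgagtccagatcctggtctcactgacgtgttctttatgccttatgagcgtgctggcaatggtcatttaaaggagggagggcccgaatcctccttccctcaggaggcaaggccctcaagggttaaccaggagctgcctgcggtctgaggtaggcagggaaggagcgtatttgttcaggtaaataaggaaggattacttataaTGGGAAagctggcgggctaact
Foxa3: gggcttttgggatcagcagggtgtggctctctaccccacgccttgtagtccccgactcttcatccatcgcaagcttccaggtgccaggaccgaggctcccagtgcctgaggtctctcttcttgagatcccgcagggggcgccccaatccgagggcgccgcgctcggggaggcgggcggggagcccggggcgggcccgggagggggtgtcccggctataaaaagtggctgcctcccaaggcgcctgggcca
Atoh1: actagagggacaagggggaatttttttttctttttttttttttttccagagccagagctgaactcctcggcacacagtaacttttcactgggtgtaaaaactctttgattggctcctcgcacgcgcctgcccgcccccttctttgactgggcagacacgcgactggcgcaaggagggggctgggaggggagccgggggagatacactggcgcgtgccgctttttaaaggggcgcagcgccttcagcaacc
Dll4: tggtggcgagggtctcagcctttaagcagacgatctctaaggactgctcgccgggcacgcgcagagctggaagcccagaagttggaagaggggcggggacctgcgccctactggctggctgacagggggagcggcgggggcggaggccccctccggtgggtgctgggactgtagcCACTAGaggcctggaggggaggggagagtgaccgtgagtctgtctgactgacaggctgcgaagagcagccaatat
The motifs were TGGGAA for RBPJ, CACNAG for the N box that HES proteins can bind, CAGCTG for an E box, AAATCA for GFI1 and TGTTTAC for FOXA proteins. No other motif was searched, and no match of one overlapped a match of another in these windows. RefSeq windows were matched by symbol for 7 of the 8 genes, all but Hes1, and Gfi1 and Dll1 had more than 1 start, giving 9 windows. The Spdef window held TGGGAA from 22 to 17 bases before the start, letters found in 21.6% of all 32851 RefSeq windows of this length. The Dll4 window held CACTAG from 75 to 70 bases before the start and the Notch1 window CACAAG from 108 to 103, and the N box letters occurred in 36.7% of all windows. CAGCTG, found in 13% of windows, lay 132 to 127 bases before the second Dll1 start. AAATCA (12.4% of windows) and TGTTTAC (3.17%) were in none of the 9 windows, and the Atoh1, Gfi1 and Foxa3 windows held none of the 5 motifs. These matches describe letters alone. Base composition differed, with 68.8% G or C in the Foxa3 window, 65.6% in that of Dll4, 55.6% in that of Atoh1 and 52.8% in that of Spdef, beside a median of 52.4% over all windows.

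The libraries held 24.9 to 37.3 M (mega) counts, with a median of 31.5 M. The epithelial surface gene Epcam stood at 1640 to 3590 CPM (counts per mega-count of the library), the goblet mucin Muc2 at 337 to 1130 and the proliferation gene Mki67 at 32.9 to 152. The pan-leukocyte gene Ptprc stood at 0.198 to 0.638 CPM and the endothelial gene Pecam1 at 0.0876 to 0.463. The virgin library of replicate 3 stood apart by its content, with the lowest Paneth cell score of all libraries (-2.1 on the log2 scale) and an absorptive score of 0.604, where a score is the mean over a marker list of each gene's log2 CPM minus its mean over the 18 libraries. Results are therefore also given without it where that moves them. In sorted bulk cells, fewer cells of a type and less RNA per cell cannot be told apart.

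Per kilobase of annotated exon, Hes1 was the most abundant of the 8 transcripts at 27.0 ± 7.84 CPM per kilobase (SD over 18 libraries), and it stood above Dll1, the next in order, in 18 of 18 libraries. Dll1 (7.31 ± 1.43), Spdef (7.03 ± 2.20) and Atoh1 (7.02 ± 1.94) formed a middle tier. Dll1 exceeded Spdef in 9 of 18 libraries and Spdef exceeded Atoh1 in 6, with mean log2 differences of 0.10 ± 0.63 and -0.01 ± 0.32, within their SD. Foxa3 followed at 6.11 ± 1.98 and was below Atoh1 in 15 of 18 libraries, a mean log2 difference of 0.22 ± 0.34 that was within its SD. Dll4 came next at 3.40 ± 1.21, below Foxa3 in 14 libraries. Gfi1 (0.807 ± 0.256) and Notch1 (0.590 ± 0.280) were the least abundant, and Dll4 stood above Gfi1 in 18 of 18 libraries. Some of this order depended on the length used. Gfi1 exceeded Notch1 in 17 of 18 libraries here, but over the exons of protein-coding transcripts alone Notch1 stood at 0.89 ± 0.42 and Gfi1 at 0.83 ± 0.26. Over those exons Spdef (8.42 ± 2.64) exceeded Atoh1 (7.02 ± 1.94) in 15 of 18 libraries, a mean log2 difference of 0.25 ± 0.32 that was still within its SD.

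None of the 8 genes passed an adjusted p of 0.05 in any of the 3 comparisons, and neither did any other of the 14675 genes tested with edgeR's quasi-likelihood test. In pregnant against virgin libraries, Dll4 was the member with the largest difference, a 1.51-fold higher level, and Foxa3, Spdef, Atoh1, Gfi1 and Hes1 had lower means in the pregnant group. In pseudopregnant against virgin libraries, Notch1 and Dll4 had the largest differences upwards, each about 1.5-fold, and Foxa3, Spdef and Hes1 the largest downwards. These comparisons share the virgin libraries, so a likeness between them is not independent. In pregnant against pseudopregnant libraries, the largest differences were those of Notch1 (0.739-fold) and Gfi1 (0.762-fold).

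Counted by an unadjusted p under 0.05, 1 of the 8 genes (Dll4) was higher and 0 lower in pregnant than in virgin libraries, beside 2.02% of all tested genes higher, 1.66% lower and 0.0% past the adjusted p. In pseudopregnant against virgin libraries the count was again 1 higher (Dll4) and 0 lower, beside 7.36% of all genes higher, 2.01% lower and 0.0% past the adjusted p. In pregnant against pseudopregnant libraries it was 0 in each direction, beside 0.763% higher, 1.59% lower and 0.0% past the adjusted p. The lowest and highest libraries of the groups overlapped for 8 of 8 genes in every comparison. Over all genes, 0.0681% did not overlap in pregnant against virgin, 0.0681% in pseudopregnant against virgin and 0.0273% in pregnant against pseudopregnant. The median log2 fold change of the 8 genes was -0.24 in pregnant against virgin (all genes -0.01), -0.13 in pseudopregnant against virgin (all genes 0.0) and -0.04 in pregnant against pseudopregnant (all genes -0.01).

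**Figure D1:**
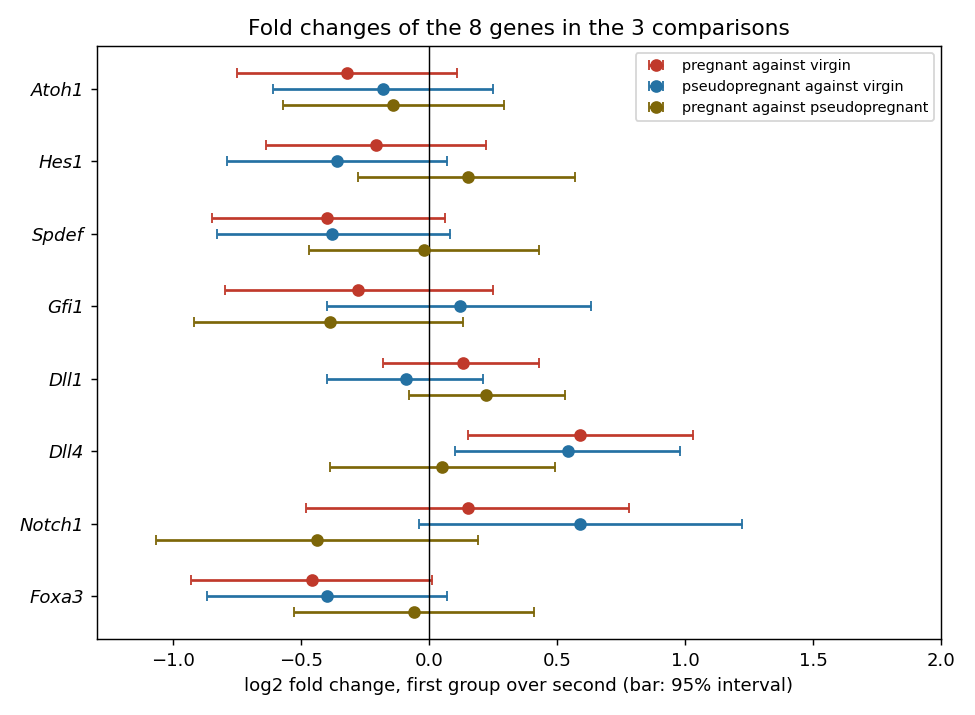
Log2 fold changes of the 8 genes in the 3 comparisons (x axis, first group over second; points are estimates from edgeR, bars are 95% intervals). Only the bars of Dll4 in the comparisons with virgin libraries, at 0.59 and 0.54, stay clear of 0.

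Dll4, a ligand of Notch receptors, lies on the plus strand of chromosome 2 (119325784 to 119335962, 11 exon blocks). It ranged from 7.78 to 12.3 CPM in virgin libraries (median 9.89), from 9.95 to 22.8 in pregnant (median 13.3) and from 10.4 to 23.0 in pseudopregnant libraries (median 11.9). All 6 pregnant and all 6 pseudopregnant libraries lay above the virgin median, yet the groups overlapped. The upper end of each group consisted of 2 libraries: pregnant replicates 4 (22.8) and 3 (18.9), and pseudopregnant replicates 4 (23.0) and 1 (19.1). The log2 fold change was 0.59 (SE 0.22, 95% interval 0.15 to 1.03) in pregnant against virgin libraries, where Dll4 ranked 126 of 14675 genes by p with an adjusted p of 0.89. In pseudopregnant against virgin libraries it was 0.54 (SE 0.22, 95% interval 0.10 to 0.98), with a rank of 671 by p and an adjusted p of 0.52. Over 21 alternatives in each comparison these adjusted p ranged from 0.32 to 1 and from 0.25 to 1. Pregnant and pseudopregnant libraries differed by 0.05 (95% interval -0.39 to 0.49). Without pregnant replicate 4 the first difference was 0.43, and without pseudopregnant replicate 4 the second was 0.36, and neither then reached an unadjusted p of 0.05.

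Dll4 is also an endothelial gene, and the endothelial list was near the floor of detection. Its 14 genes each averaged under 1 CPM and summed to 2.1 to 4.82 CPM in virgin libraries, 2.69 to 4.45 in pregnant and 2.25 to 4.92 in pseudopregnant ones, below Dll4 itself in every group. Detection differed within the list. Kdr, a defining receptor of endothelium, was at 0 in 4 of 18 libraries, Erg in 14, and Tie1 (0.222 to 2.37 CPM) in none. Whether endothelial cells contributed to the Dll4 values was not tested. On the opposite strand, Gm14207 shares 214 exon bases with Dll4 and drew 26.1% as many counts. Its level was 3.57 ± 1.21 CPM in virgin libraries, 3.88 ± 1.53 in pregnant and 3.28 ± 1.37 in pseudopregnant ones (SD, n = 6), and its r with Dll4 across the libraries was 0.05. How the counting treated strand is not recorded in the labels, so reads of the shared bases may have been assigned to either gene.

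Dll1, the other ligand, lies on the minus strand of chromosome 17 (15367354 to 15376872, 12 exon blocks). It ranged from 22.8 to 36.2 CPM in virgin libraries (median 32.3), from 23.1 to 46.2 in pregnant (median 33.6) and from 23.9 to 34.5 in pseudopregnant libraries (median 26.6). Its spread within groups, 16.2% to 23.6% of the mean, covered the differences between them. On the log2 scale the difference was 0.13 (SE 0.16) in pregnant against virgin, -0.09 (SE 0.16) in pseudopregnant against virgin and 0.22 (SE 0.16) in pregnant against pseudopregnant libraries. Of the pregnant libraries, 5 of 6 lay above the pseudopregnant median. The antisense gene A930024N18Rik shares 867 exon bases with Dll1 and drew 3.31% as many counts. The log2 ratio of Dll1 to Dll4, each in CPM per kilobase of annotated exon, was 1.49 ± 0.17 in virgin libraries. It was 1.06 ± 0.34 in pregnant and 0.91 ± 0.64 in pseudopregnant ones (SD, n = 6). Its lowest value, -0.08, was in a pseudopregnant library.

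Notch1, the receptor, lies on the minus strand of chromosome 2 (26457903 to 26516663, 40 exon blocks) and has the longest transcript of the set, with 14232 annotated exon bases. It ranged from 3.57 to 9.64 CPM in virgin libraries (median 7.03), from 4.40 to 10.7 in pregnant (median 7.52) and from 4.94 to 20.2 in pseudopregnant libraries (median 9.51). The pseudopregnant group fell apart into 3 libraries at 12.8 to 20.2 CPM (replicates 2, 4 and 5) and 3 at 4.94 to 6.19, and its spread was the widest of any gene and group, at 56.7% of the mean. The log2 fold change was 0.59 (SE 0.32, 95% interval -0.04 to 1.22; adjusted p = 0.52) in pseudopregnant against virgin libraries and 0.15 (SE 0.32) in pregnant against virgin. In pregnant against pseudopregnant libraries it was -0.44 (SE 0.32). Without pseudopregnant replicate 5, the highest library at 20.2 CPM, the first of these was 0.29 and the last -0.14. The length slope of a library, the dependence of its deviations on transcript length over 6364 well expressed genes, moved with Notch1 over the 18 libraries. Their r was -0.18 within virgin, 0.72 within pregnant and 0.95 within pseudopregnant libraries. With that slope as a covariate, given 1 effect common to the 3 groups, the differences from virgin libraries were -0.04 in pseudopregnant and -0.14 in pregnant libraries. With the villus-minus-crypt score (absorptive minus proliferation score) as a covariate instead they were 0.69 and 0.46, so the choice of covariate set the size and sign. The antisense gene 0610009E02Rik shares 1068 exon bases with Notch1 and drew 4.95% as many counts.

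Hes1, the repressor that Notch signalling switches on, lies on the plus strand of chromosome 16 (30064384 to 30067796). It ranged from 33.9 to 87.3 CPM in virgin libraries (median 61.9), from 34.8 to 83.0 in pregnant (median 51.5) and from 40.9 to 65.7 in pseudopregnant libraries (median 45.9). Of the pseudopregnant libraries, 5 of 6 lay below the virgin median, and the virgin range enclosed both other groups. Its log2 fold change was -0.21 (SE 0.22) in pregnant and -0.36 (SE 0.22) in pseudopregnant libraries against virgin, and 0.15 (SE 0.22) between pregnant and pseudopregnant. Adjusted for the villus-minus-crypt score, the differences from virgin libraries were 0.01 in pregnant and -0.19 in pseudopregnant libraries. Adjusted for the length slope they were -0.08 and -0.04.

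Atoh1, the gene that opens the secretory programme, is a single-exon gene on the plus strand of chromosome 6 (64729125 to 64731245). It ranged from 7.31 to 24.9 CPM in virgin libraries (median 17.3), from 9.91 to 18.5 in pregnant (median 12.4) and from 12.2 to 17.9 in pseudopregnant libraries (median 13.6). Of 6 libraries, 5 in each of the pregnant and pseudopregnant groups lay below the virgin median. Atoh1 differed on the log2 scale by -0.32 (SE 0.22) in pregnant and -0.18 (SE 0.22) in pseudopregnant libraries against virgin, and -0.14 (SE 0.22) between pregnant and pseudopregnant. The log2 ratio of Atoh1 to Hes1, factor over repressor, was taken between CPM per kilobase of annotated exon. It was -2.0 ± 0.43, -2.04 ± 0.56 and -1.78 ± 0.36 in virgin, pregnant and pseudopregnant libraries (SD, n = 6), with differences smaller than the spread.

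Gfi1, which acts downstream of ATOH1, lies on the minus strand of chromosome 5 (107716657 to 107726036). It rested on 26 to 126 counts a library, the fewest of the set. It ranged from 1.11 to 3.84 CPM in virgin libraries (median 3.03), from 1.19 to 2.94 in pregnant (median 2.27) and from 1.92 to 3.65 in pseudopregnant libraries (median 3.07). All 6 pregnant libraries lay below the virgin median and all 6 below the pseudopregnant one, with overlap at the low end of each group. Gfi1 differed on the log2 scale by -0.28 (SE 0.27) in pregnant and 0.12 (SE 0.26) in pseudopregnant libraries against virgin, and -0.39 (SE 0.27) between pregnant and pseudopregnant.

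Spdef, a factor of goblet and Paneth cell maturation, lies on the minus strand of chromosome 17 (27714352 to 27728955). It ranged from 7.80 to 29.4 CPM in virgin libraries (median 21.3), from 9.29 to 18.9 in pregnant (median 14.0) and from 12.7 to 17.1 in pseudopregnant libraries (median 14.7). All 12 pregnant and pseudopregnant libraries lay below the virgin median, but virgin replicate 3 was lower than every one of them. The log2 fold change was -0.40 (SE 0.23, 95% interval -0.85 to 0.06) in pregnant and -0.38 (SE 0.23, 95% interval -0.83 to 0.08) in pseudopregnant libraries against virgin. Between pregnant and pseudopregnant libraries it was -0.02 (95% interval -0.47 to 0.43).

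Foxa3, a forkhead factor of goblet cells, lies on the minus strand of chromosome 7 (19013284 to 19023538, 2 exon blocks). It ranged from 6.10 to 21.8 CPM in virgin libraries (median 15.8), from 7.35 to 15.2 in pregnant (median 10.3) and from 10.1 to 12.9 in pseudopregnant libraries (median 11.1). As for Spdef, all 12 libraries of the other groups lay below the virgin median and above virgin replicate 3. The log2 fold change was -0.46 (SE 0.24, 95% interval -0.93 to 0.01) in pregnant and -0.40 (SE 0.24, 95% interval -0.87 to 0.07) in pseudopregnant libraries against virgin. Between pregnant and pseudopregnant libraries it was -0.06 (95% interval -0.53 to 0.41).

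Virgin replicate 3 was the lowest of all 18 libraries for Atoh1, Hes1, Spdef, Gfi1, Notch1 and Foxa3 and the highest virgin library for Dll1 and Dll4. Without it, 4 of the 8 genes reached an unadjusted p under 0.05 in pregnant against virgin libraries: Foxa3 at -0.62, Spdef at -0.56, Atoh1 at -0.47 and Dll4 at 0.67, each with an adjusted p of 0.32 in edgeR. The share of all 14805 genes then tested was larger too, at 7.4% higher and 5.79% lower at that unadjusted p. In pseudopregnant against virgin libraries these were Spdef at -0.54, Foxa3 at -0.56, Hes1 at -0.48 and Dll4 at 0.61, each with an adjusted p of 0.27 in edgeR, beside 11.1% of all genes higher and 6.32% lower. Leaving out virgin replicates 2 and 4 moved values the opposite way. Without virgin replicate 2, Spdef was at -0.23, Foxa3 at -0.32 and Hes1 at -0.09 in pregnant against virgin libraries, and at -0.23, -0.28 and -0.25 in pseudopregnant against virgin. Without virgin replicate 4, Atoh1 was at -0.17 in pregnant and -0.03 in pseudopregnant libraries against virgin, and Gfi1 was at -0.14 in pregnant against virgin. Adjusted for the villus-minus-crypt score and with all libraries kept, the pregnant against virgin differences were -0.21 for Foxa3, -0.18 for Spdef, -0.13 for Atoh1 and 0.47 for Dll4. This score ran from -0.856 to 1.263 in virgin libraries, from -0.558 to 1.458 in pregnant and from -0.696 to 1.076 in pseudopregnant ones, with medians of -0.546, 0.158 and -0.225. The highest virgin value was that of replicate 3.

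**Figure D2:**
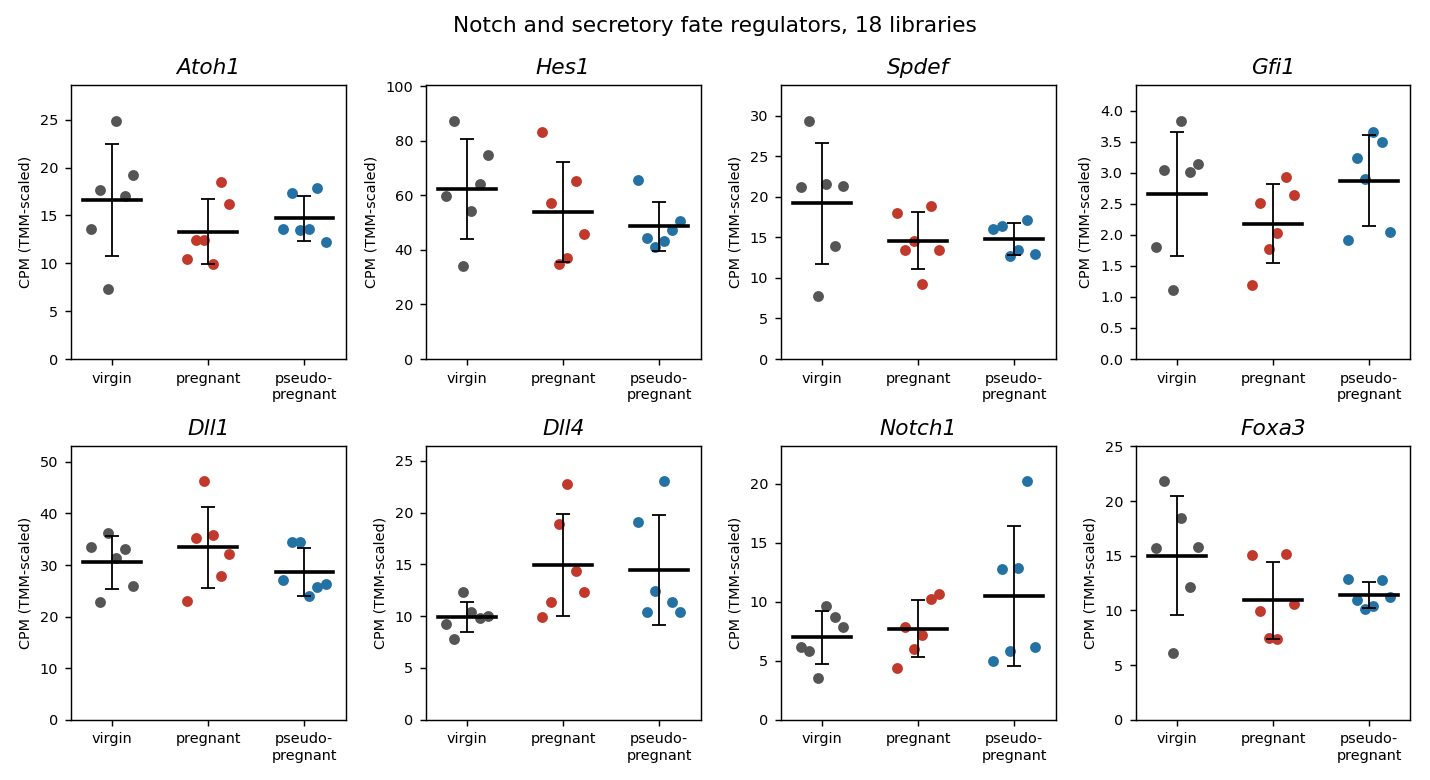
TMM-scaled CPM (y axis, linear from 0) of each gene in the 6 libraries of each group (points, in replicate order from left to right; bar, mean; whiskers, SD). Virgin replicate 3 is the low point of the virgin group for 6 genes, and Dll4 reaches 22.8 and 23.0 CPM in a pregnant and a pseudopregnant library.

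Across the 18 libraries several of the members varied together. Of 28 pairs, 12 passed an adjusted p of 0.05 in a two-sided permutation test of Pearson's r of log2 CPM, 8 with a positive and 4 with a negative r. The share of all gene pairs that would pass was not worked out, so this count does not set the members apart from other genes. An r above 0.5 was found with 9.59% (for Atoh1) to 28.8% (for Notch1) of 10497 genes outside the set. Spdef and Foxa3 were the closest pair, with r = 0.93 (rho 0.91, permutation p = 1e-05, the smallest 100000 permutations can give; adjusted p = 0.00014). It was 0.88 without the 2 libraries farthest from the Spdef median, 0.93 with group means subtracted, and 0.99, 0.83 and 0.77 within virgin, pregnant and pseudopregnant libraries. Foxa3 and Hes1 gave r = 0.86 (rho 0.84, permutation p = 2e-05, adjusted p = 0.00019), and 0.82 without the 2 farthest libraries. Spdef and Hes1 gave r = 0.76 (rho 0.71, permutation p = 0.00018, adjusted p = 0.001), and 0.71 without the 2 farthest. Hes1, the repressor, thus varied with Spdef and Foxa3 rather than against them. Within virgin, pregnant and pseudopregnant libraries it gave 0.87, 0.72 and 0.40 with Spdef and 0.86, 0.93 and 0.78 with Foxa3. Its r with Atoh1, the gene it represses, was 0.42 (rho 0.43, permutation p = 0.078, adjusted p = 0.14; 0.31 without the 2 farthest). Within the same groups the r with Atoh1 was 0.71, 0.14 and -0.21, so its sign differed between groups.

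The early secretory genes and the receptor also varied together. Atoh1 and Gfi1 gave r = 0.84 (rho 0.82, permutation p = 1e-05, adjusted p = 0.00014), which was 0.74 without the 2 farthest libraries and 0.86 with group means subtracted. Gfi1 and Notch1 gave r = 0.79 (rho 0.75, permutation p = 8e-05, adjusted p = 0.00056), and 0.68 without the 2 farthest. These pairs and those among Spdef, Foxa3 and Hes1 were the 5 that passed the adjusted p also without the 2 farthest libraries. Atoh1 also varied with Spdef (r = 0.74, rho 0.74, permutation p = 0.00062, adjusted p = 0.0028), with Foxa3 (r = 0.72, rho 0.70, permutation p = 0.00071, adjusted p = 0.0028) and with Notch1 (r = 0.63, rho 0.63, permutation p = 0.0048, adjusted p = 0.013). Without virgin replicates 3 and 4, the farthest for Atoh1, these were 0.58, 0.54 and 0.54 and no longer passed, so the calls rest on those libraries. Gfi1 gave r = 0.12 with Hes1 (rho 0.13, permutation p = 0.64, adjusted p = 0.71), and Notch1 gave 0.17 with Foxa3 (rho 0.09, permutation p = 0.49, adjusted p = 0.60). Within virgin, pregnant and pseudopregnant libraries the r of Gfi1 with Hes1 was 0.74, -0.22 and -0.78.

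The ligands ran against Foxa3 and Hes1. Dll1 gave r = -0.67 with Hes1 (rho -0.67, permutation p = 0.0025, adjusted p = 0.0086) and -0.65 with Foxa3 (rho -0.69, permutation p = 0.0038, adjusted p = 0.012). Dll4 gave r = -0.58 with Foxa3 (rho -0.64, permutation p = 0.013, adjusted p = 0.032) and -0.55 with Hes1 (rho -0.61, permutation p = 0.02, adjusted p = 0.046). Without the 2 farthest libraries of each pair these 4 values were -0.52, -0.49, -0.52 and -0.42 and did not pass the adjusted p. With Spdef, Pearson's r did not pass, at -0.49 for Dll1 (rho -0.53, permutation p = 0.039, adjusted p = 0.079) and -0.52 for Dll4 (rho -0.57, permutation p = 0.027, adjusted p = 0.058). Within pseudopregnant libraries Dll4 gave 0.26 with Hes1 and 0.00 with Foxa3, beside -0.89 and -0.83 within virgin and -0.82 and -0.75 within pregnant libraries. Dll1 and Dll4 gave r = 0.23 with each other (rho 0.31, permutation p = 0.35, adjusted p = 0.49), with 0.75 in virgin libraries, 0.67 in pregnant and -0.53 in pseudopregnant ones. All these values are from libraries that share content and depth, with 6 in each group.

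**Figure D3:**
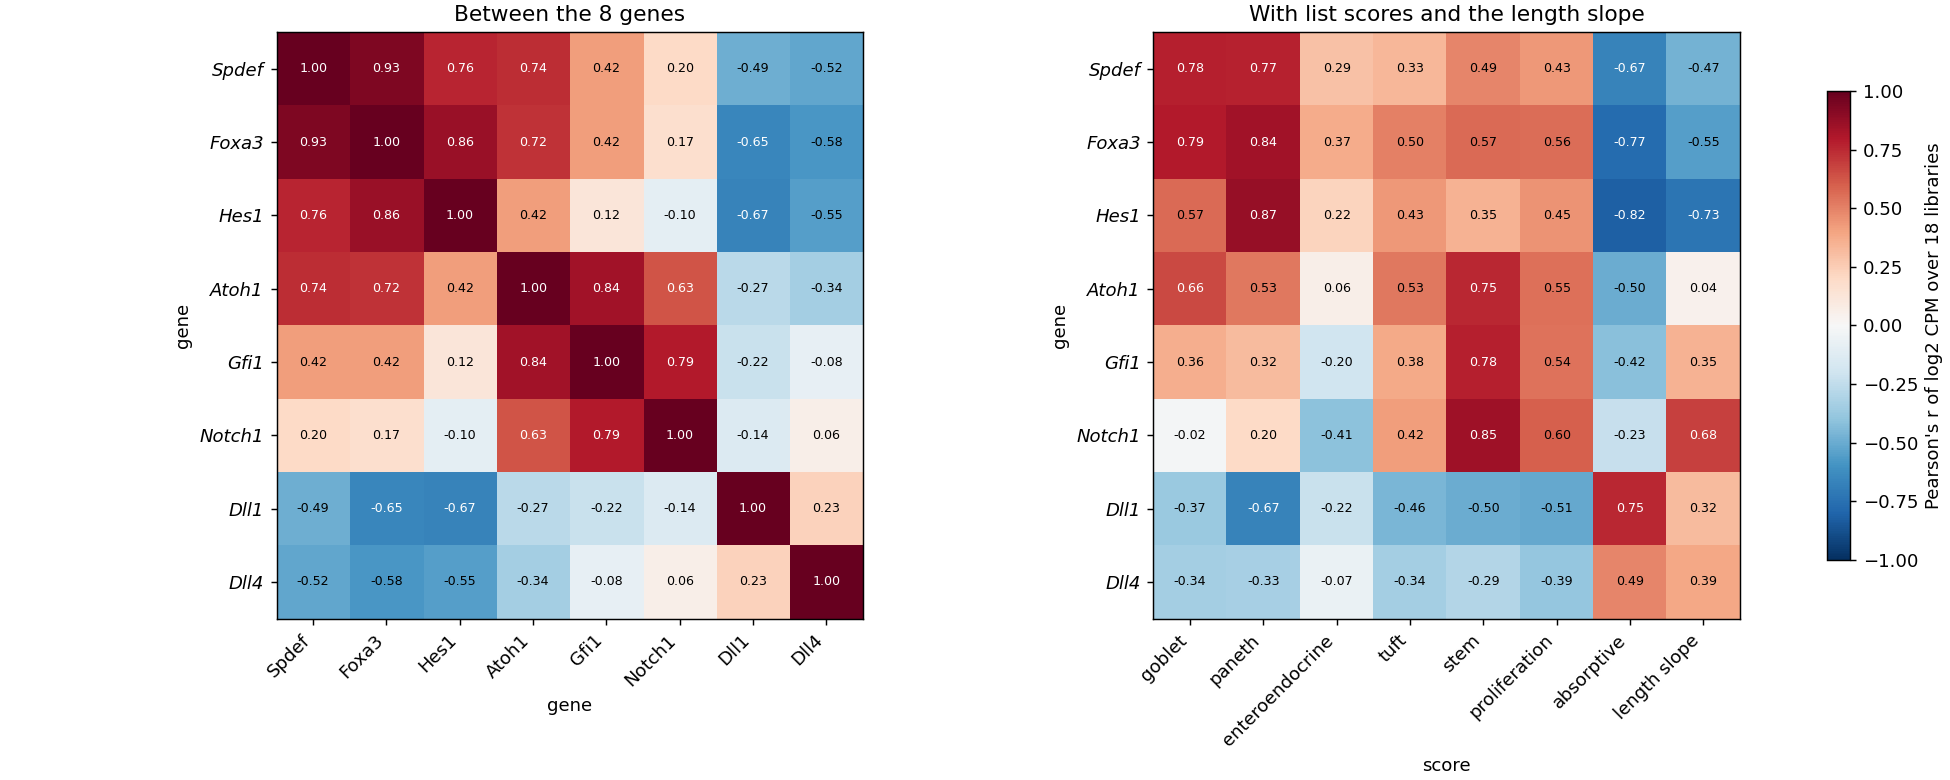
Pearson's r of log2 CPM over 18 libraries between the 8 genes (left) and between each gene and 7 marker list scores or the length slope (right), coloured from -1 (blue) to 1 (red). Spdef, Foxa3 and Hes1 have values of 0.76 to 0.93 with each other, and Atoh1, Gfi1 and Notch1 of 0.63 to 0.84. Atoh1 also has 0.74 with Spdef and 0.72 with Foxa3, and the ligands have negative values with Foxa3, Hes1 and Spdef, those with Spdef not past the adjusted p.

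The members were then set beside marker scores that hold none of them. Of 64 relations, 19 passed the adjusted p, 14 positive and 5 negative. The share of all genes that would pass with these scores was not worked out. Spdef and Foxa3 followed the goblet and Paneth lists over the 18 libraries. Foxa3 gave r = 0.79 with the goblet score (rho 0.75, permutation p = 7e-05, adjusted p = 0.0009) and 0.84 with the Paneth score (rho 0.83, permutation p = 1e-05, adjusted p = 0.00021). Spdef gave 0.78 with goblet (rho 0.73, permutation p = 0.00014, adjusted p = 0.0015) and 0.77 with Paneth (rho 0.74, permutation p = 0.00025, adjusted p = 0.0016). Within virgin, pregnant and pseudopregnant libraries the goblet values were 0.87, 0.75 and 0.42 for Foxa3 and 0.84, 0.90 and 0.18 for Spdef. The Paneth values were 0.92, 0.90 and 0.87 for Foxa3 and 0.91, 0.58 and 0.66 for Spdef. Without virgin replicates 2 and 3, the farthest for both genes, the values were 0.68 and 0.74 for Foxa3 and 0.66 and 0.52 for Spdef. The last of these no longer passed (adjusted permutation p = 0.13), so the call of Spdef with the Paneth score rests on those libraries. Hes1 was closest to the Paneth score, at r = 0.87 (rho 0.95, permutation p = 1e-05, adjusted p = 0.00021), with 0.81 without the 2 farthest libraries and 0.96, 0.94 and 0.83 within the 3 groups.

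The early genes and the receptor followed the stem cell list, which includes Lgr5 and Ascl2. Notch1 gave r = 0.85 (rho 0.84, permutation p = 1e-05, adjusted p = 0.00021), and 0.73 without the 2 farthest libraries. Gfi1 gave 0.78 (rho 0.83, permutation p = 0.00017, adjusted p = 0.0016), and 0.76 without the 2 farthest. Atoh1 gave 0.75 (rho 0.81, permutation p = 0.00024, adjusted p = 0.0016), and 0.66 without the 2 farthest. Foxa3 also passed with this score (r = 0.57, rho 0.47, permutation p = 0.014, adjusted p = 0.048), with 0.47 without the 2 farthest. Notch1 also passed with the proliferation score (r = 0.60, rho 0.63, permutation p = 0.0082, adjusted p = 0.031), with 0.50 without them. The scores varied with each other too, at r = 0.85 for stem cell with proliferation and -0.76 for Paneth with absorptive, so these relations are not independent. The goblet score gave 0.66 with Atoh1 (rho 0.50, permutation p = 0.0029, adjusted p = 0.012), but 0.37 without virgin replicates 3 and 4, so that relation rests on those libraries, and the adjusted p of its rho was 0.085. None of the 8 genes passed with the enteroendocrine score (r from -0.41 for Notch1 to 0.37 for Foxa3) or the tuft score (-0.46 for Dll1 to 0.53 for Atoh1).

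On the absorptive side, Dll1 rose with the absorptive score (r = 0.75, rho 0.77, permutation p = 0.00029, adjusted p = 0.0017), with 0.81, 0.80 and 0.84 within the groups. Without virgin replicate 2 and pregnant replicate 3, the farthest for Dll1, it was 0.62 with an adjusted permutation p of 0.052, so its call rests on those libraries. Hes1 fell with it (r = -0.82, rho -0.77, permutation p = 5e-05, adjusted p = 0.0008; -0.80 without the 2 farthest), as did Foxa3 (r = -0.77, rho -0.70, permutation p = 0.00024, adjusted p = 0.0016; -0.66). Within pseudopregnant libraries these were -0.06 for Hes1 and -0.17 for Foxa3. Dll4 gave 0.49 (rho 0.55, permutation p = 0.04, adjusted p = 0.083; 0.63 without the 2 farthest). The length slope went with Notch1 (r = 0.68, rho 0.59, permutation p = 0.0019, adjusted p = 0.0089; 0.78 without the 2 farthest) and against Hes1 (r = -0.73, rho -0.77, permutation p = 0.00054, adjusted p = 0.0029; -0.58). That of Hes1 did not pass without its 2 farthest libraries, virgin replicate 2 and pregnant replicate 1 (adjusted permutation p = 0.074), and that of Notch1 did not with group means subtracted (r = 0.63, adjusted permutation p = 0.062). Within virgin, pregnant and pseudopregnant libraries the r with the slope was -0.18, 0.72 and 0.95 for Notch1 and -0.80, -0.80 and -0.68 for Hes1. The slope itself ran from -0.246 to 0.079 in virgin libraries, -0.236 to 0.161 in pregnant and -0.165 to 0.259 in pseudopregnant ones, and its part in the Notch1 and Hes1 differences was not tested beyond the covariate fits.

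**Figure D4:**
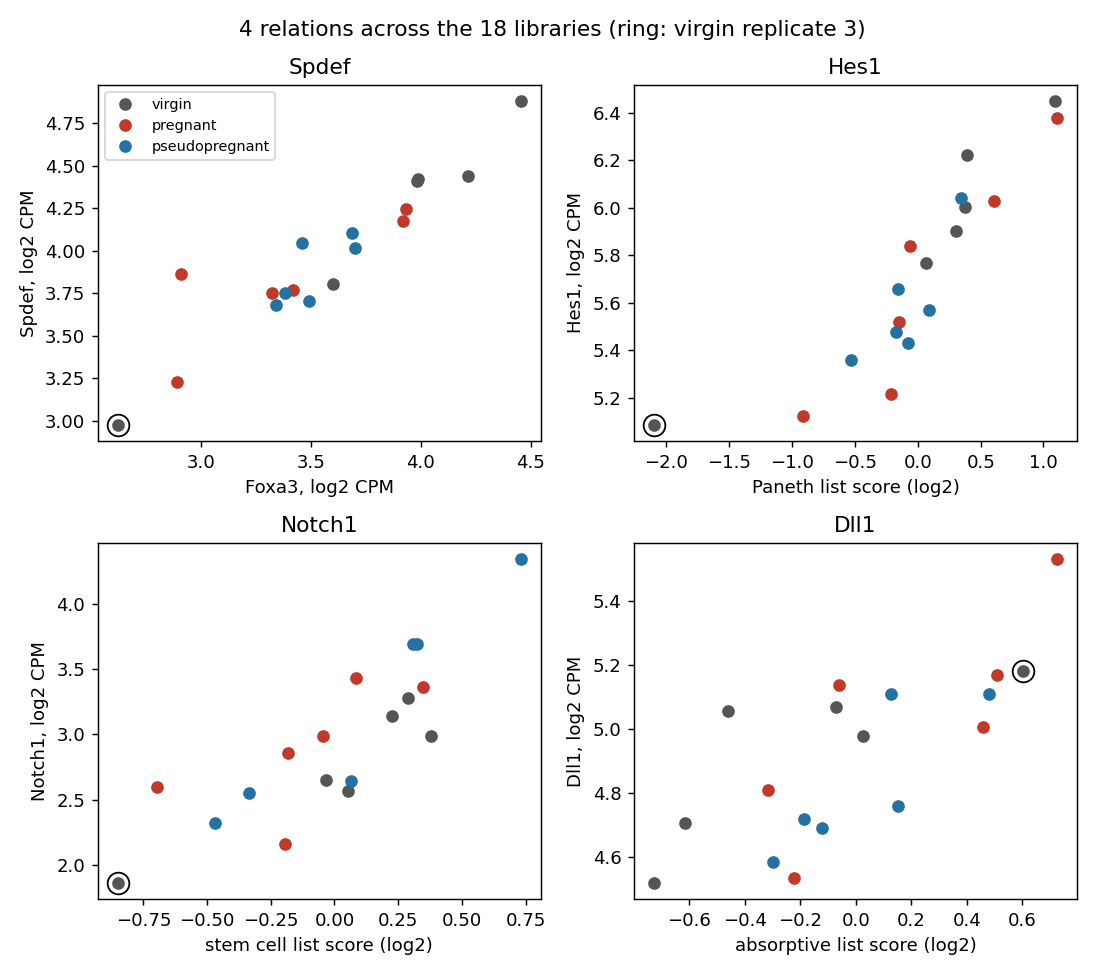
Log2 CPM of Spdef against that of Foxa3, and of Hes1, Notch1 and Dll1 against the Paneth, stem cell and absorptive list scores (mean log2 deviation), 1 point a library, coloured by group. The ringed library, virgin replicate 3, lies at the low end of the first 3 relations, whose r over 18 libraries are 0.93, 0.87 and 0.85, and near the high end of the absorptive score in the last (r = 0.75).

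Of 10497 tested genes with a mean of at least 2 CPM and no predicted name, the 3 most alike to each member by Pearson's r of log2 CPM over the 18 libraries were these, with no p since they were picked as the highest. Atoh1 was closest to Slc12a8 (0.94), Creb3l4 (0.932) and Creb3l1 (0.923), a solute carrier and a pair of membrane-bound transcription factors of the secretory pathway. Gfi1 was closest to Chrm1 (0.912), a muscarinic acetylcholine receptor, Sytl4 (0.896), of the granule-docking synaptotagmin-like family, and Slc25a35 (0.89). Foxa3 was closest to Reg4 (0.925), a secreted lectin, Hsd11b2 (0.919), which inactivates glucocorticoids, and Fam174b (0.915). Spdef was closest to the ribosomal protein pseudogenes Rpl29-ps2 (0.913) and Rpl15-ps5 (0.901), and then to Foxa2 (0.891). Whether reads of these pseudogenes came from their parent genes was not tested. Hes1 was closest to Csrp2 (0.956), the ribosomal gene Rplp0 (0.953) and the pseudogene Rpl14-ps1 (0.946), whose reads were likewise not tested. Notch1 was closest to Tln2 (0.96), Acly (0.957) and Lamc1 (0.956), which encode a talin, the ATP citrate lyase and a laminin chain. Dll1 was closest to Asb13 (0.917), Cdr2 (0.902) and the fatty aldehyde dehydrogenase Aldh3a2 (0.892). Dll4 was closest to the nucleotide sugar transporter Slc35d1 (0.884), the sphingomyelin synthase Sgms1 (0.876) and the angiogenic growth factor Vegfa (0.874). An r above 0.5 was most common for Notch1 (28.8% of genes compared) and Hes1 (24.3%) and least common for Atoh1 (9.59%) and Dll4 (11.5%).

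The rest of the Notch pathway was read from a list of 44 genes, of which 36 were abundant enough to test. In pregnant against virgin libraries 1 was higher and 0 were lower at an unadjusted p under 0.05, none at the adjusted p, with a median log2 fold change of 0.06. Among the genes of smallest p were the receptor convertase Furin (0.30, SE 0.16), the ligand ubiquitin ligase Neurl1b (0.22, SE 0.12) and the Notch inhibitor Numb (0.34, SE 0.20). In pseudopregnant against virgin libraries 5 were higher and 1 was lower at an unadjusted p under 0.05, none at the adjusted p, with a median of 0.11. Spen, a co-repressor that binds RBPJ, was at 45.1 ± 24.1 against 23.2 ± 4.54 CPM (log2 0.96, SE 0.31). Notch2, the receptor that accompanies Notch1 in the crypt, was at 8.20 ± 4.16 against 4.78 ± 0.954 CPM (log2 0.78, SE 0.30). The receptor protease Adam10 (0.33, SE 0.13) and the DNA-binding partner Rbpj (0.40, SE 0.17) had smaller differences in the same direction, as did Mib1 (0.37, SE 0.17), and the lower gene was Rfng (-0.22, SE 0.10). In pregnant against pseudopregnant libraries 1 was higher, the glycosyltransferase gene Rfng (log2 0.24, SE 0.10), and 1 lower, Notch2 (log2 -0.66, SE 0.30), followed by Spen (-0.61, SE 0.30) and the ligand ubiquitin ligase Mib1 (-0.32, SE 0.17), and the median was -0.05. With 36 genes, these counts stand beside the shares of all genes given above, where the medians over all genes were -0.01, 0.0 and -0.01. With the length slope as a covariate, 311 genes had an unadjusted p under 0.05 in pseudopregnant against virgin libraries, in place of 1375. The part of that slope in the differences of the listed genes was not tested.

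Of 21 further transcription factors of the secretory lineages, 19 were tested. The median log2 fold change was -0.21 in pregnant against virgin, -0.04 in pseudopregnant against virgin and -0.17 in pregnant against pseudopregnant libraries. At an unadjusted p under 0.05, 1 was lower and 0 higher in pregnant against virgin, 0 in either direction in pseudopregnant against virgin, and 1 lower and 0 higher in pregnant against pseudopregnant libraries, with none at the adjusted p. In the same pregnant against virgin comparison, 20 of 20 enteroendocrine markers had negative log2 fold changes (median -0.37, 3 at an unadjusted p under 0.05). So did 15 of 15 goblet markers (median -0.29, 1 at that p). Negative values were not limited to secretory lists. They were found for 24 of 24 proliferation, 9 of 10 Paneth, 9 of 12 tuft and 9 of 12 stem cell markers, none at that p. Of 23 absorptive markers, 20 had positive values (median 0.44, 6 at that p). Over all tested genes, 2.02% were higher and 1.66% lower at that p, and the median log2 fold change was -0.01. The share of all genes with a negative value was not worked out. Markers of a list were read in the same libraries, so their signs are not independent of each other. The enteroendocrine score ran from -0.413 to 0.98 in virgin, from -0.333 to 0.259 in pregnant and from -0.425 to 0.616 in pseudopregnant libraries, and its part in the secretory factor values was not tested. In both of the comparisons with 1 lower factor it was Rfx6, a factor of enteroendocrine cells, at 0.600 ± 0.283 CPM in pregnant, 1.06 ± 0.255 in virgin and 1.35 ± 0.499 in pseudopregnant libraries (SD, n = 6). Its log2 fold change was -0.79 (SE 0.31) against virgin and -1.15 (SE 0.30) against pseudopregnant libraries, with adjusted p of 0.89 and 0.92 in edgeR. The enteroendocrine factors Insm1 (-0.35, SE 0.24) and Neurod1 (-0.31, SE 0.22) were also among those of smallest p in pregnant against virgin libraries. In pregnant against pseudopregnant libraries Insm1 (-0.40, SE 0.23) and Foxa1 (-0.24, SE 0.18) followed Rfx6. In pseudopregnant against virgin libraries the genes of smallest p were Rfx6 (0.36, SE 0.28), Hes6 (-0.26, SE 0.20), Bhlha15 (0.34, SE 0.33) and Foxa2 (-0.26, SE 0.26).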

How the data were processed

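Each library has its own deposited table of whole-number counts by Ensembl gene ID, not normalized. Among the tools in the submitters' processing notes are HISAT2 2.0.4 and featureCounts of Subread 2.0.0, with the build GRCm38. Per the labels, libraries were made with a directional poly(A) kit. Which annotation release and strand setting the counting used is not stated there. GENCODE M21 gave symbols for 47310 of 47729 genes. A chi-square test of 45 replicate pairs gave 32.5 to 415.9 per degree of freedom, far above sampling noise, so no library was taken for a copy of another.

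edgeR 4.0.16 (R 4.3.3) with filterByExpr, TMM scaling and a quasi-likelihood model (legacy = FALSE) with 1 mean per group over 18 libraries tested 3 contrasts, two-sided, with Benjamini-Hochberg adjustment over 14675 genes and a threshold of 0.05. CPM are TMM-scaled, and log2 CPM used a prior count of 2. The fit was tested on simulated data. Correlations used 100000 permutations, adjusted over 28 pairs of members or 64 relations with scores. Alternatives were DESeq2 1.42.0, its size factors, limma-voom (limma 3.58.1), other filters, only the 12 libraries compared, a replicate block, 2 covariates and each library left out.

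The members and lists were chosen with earlier results of these data known, and the motifs and some alternatives after the files were read. Named in the text are all 8 members, 5 marker genes, the 4 genes of smallest p of the Notch list and of the secretory factor list in each comparison, and the 3 genes most alike to each member, except that some genes of the lists are not reported here. Kdr, Erg, Tie1, Lgr5, Ascl2, Mib1 and Rfng (pseudopregnant against virgin) and overlapping antisense genes are named besides.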

Additional observations from a re-analysis of the deposited data

How the results depend on the processing

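No member passed the adjusted p under any of 504 alternative values (8 genes, 3 comparisons, 21 alternatives each), and 480 kept their direction. DESeq2 called 5 genes in pregnant against virgin libraries (Gm42427, Bco1, Cyp3a44, Mbl2 and Slc31a1, all higher), and the replicate block called 1 (Gm42427). No other alternative called a gene in that comparison, and none did in the others. Same-numbered libraries had correlations of -0.48 to 0.66 (median 0.14, 10 of 18 over 0.1), and 5 of 18 libraries correlated best with their own number. The correlations were 0.12 to 0.66 for replicate 1, 0.38 to 0.66 for replicate 3 and 0.28 to 0.42 for replicate 5. They were 0.01 to 0.15 for replicate 4, -0.48 to 0.08 for replicate 2 and -0.46 to 0.06 for replicate 6. These values do not decide whether the numbers pair samples. The labels do not say so, and the main fit did not pair them. With the block, 979 genes had an unadjusted p under 0.05 in pregnant against virgin libraries in place of 540. The number was 1988 in place of 1375 in pseudopregnant against virgin, and 618 in place of 345 in pregnant against pseudopregnant libraries. The Dll4 differences from virgin were 0.55 and 0.50 with the block. In pregnant against virgin libraries the block took the SE from 0.32 to 0.23 for Notch1 and from 0.22 to 0.16 for Hes1. It took that of Gfi1 from 0.27 to 0.21, while that of Spdef stayed at 0.23. Whether libraries of the same number share a batch was not tested.

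The other 24 changed sign, 18 of them in pregnant against pseudopregnant libraries. With the villus-minus-crypt covariate, Hes1 (0.01) and Dll1 (-0.03) in pregnant against virgin and Spdef (0.06), Dll4 (-0.04) and Foxa3 (0.01) in pregnant against pseudopregnant libraries did so. With the length slope, Notch1 (-0.14 in pregnant and -0.04 in pseudopregnant against virgin), Gfi1 (-0.12 in pseudopregnant against virgin) and Hes1 (-0.03 in pregnant against pseudopregnant) did. Leaving out 1 library gave -0.04 to 0.25 for Gfi1 in pseudopregnant against virgin, and in pregnant against pseudopregnant 0.0 to 0.27 for Hes1, -0.11 to 0.08 for Spdef, -0.11 to 0.23 for Dll4 and -0.18 to 0.03 for Foxa3. Dll4 ran from 0.43 to 0.68 in pregnant and 0.36 to 0.62 in pseudopregnant against virgin over all alternatives, with an unadjusted p under 0.05 in 19 and 17 of 21.

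Leaving out 1 library moved the number of all genes at an unadjusted p under 0.05 between 223 (without pregnant replicate 4) and 1953 (without virgin replicate 3) in pregnant against virgin. The range was 540 to 3390 in pseudopregnant against virgin and 120 to 1568 in pregnant against pseudopregnant libraries. Pairs of members past the adjusted p numbered 12, and 5 without the 2 farthest libraries. Relations with scores numbered 19, with 13 (a count, not the same set) without the 2 farthest, 13 with group means subtracted and 15 without virgin replicate 3. The cause was not tested in any of these. Depth limits Gfi1 most, at 26 to 126 counts a library.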

Other observations

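Replicate 3 of each group had the highest villus-minus-crypt score of its group, at 1.263 in virgin libraries, 1.458 in pregnant and 1.076 in pseudopregnant ones. The same 3 libraries had the lowest Hes1 of their groups, at 33.9, 34.8 and 40.9 CPM, and the lowest Paneth scores, at -2.10, -0.911 and -0.529. Dll1 was highest there in the virgin (36.2 CPM) and pregnant (46.2 CPM) groups and shared the highest value with replicate 2 in the pseudopregnant group (34.5 CPM). Their 3 correlations with each other, over deviations from the group means, were 0.66, 0.38 and 0.41. Replicate 1 of the pregnant and pseudopregnant groups had the highest Hes1 of its group (83.0 and 65.7 CPM) together with the lowest Gfi1 (1.19 and 1.92 CPM) and the lowest Notch1 (4.40 and 4.94 CPM). The labels do not say what a replicate number stands for.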
